A study of Mus musculus with 10 samples.

Results

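Notch receptors are membrane proteins that are activated by Delta-like or Jagged ligands on a neighbouring cell. The bound receptor is cut outside the membrane by Adam10 or Adam17 and then within it by gamma-secretase, of which Ncstn (nicastrin) is a subunit, and the freed intracellular part enters the nucleus and joins the DNA-binding protein Rbpj and the coactivator Maml1. In spleen, Notch2 signalling is known as a requirement of the Esam-high cDC2 and also acts on CD8+ cDC1. The genes described here are the receptors Notch1, Notch2 and Notch4, the proteases Adam10 and Adam17, Ncstn, Rbpj, Maml1 and the ligand Dll4. They were chosen by gene symbol, and all 9 had a row among the 10767 genes of the deposited table.

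Messenger RNA was sequenced from splenic CD8+ cDC1, conventional DCs that excel at cross-presentation, of untreated mice with the genotypes Ppef2+/+ or Ppef2-/-. Cells were sorted 5 times, each sort gave 1 library of either genotype from 3 pooled mice, and 10 libraries resulted. The labels give no age, strain or sex, the methods describe groups matched for age and sex, and p-values measure the spread between pools rather than between single mice. The Ppef2-/- allele is a EUCOMM knockout-first gene trap between exons 4 and 5, present in every cell of the mouse, from JM8A3.N1 embryonic stem cells whose chimeras were crossed to C57BL/6. The comparison asks whether loss of this phosphatase changed the level of Notch components in the cells.

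The table holds normalized read counts whose sort means had been taken out. In 10721 genes the libraries of a sort add up to a sum that is the same in all 5 sorts, with a relative spread of at most 6.3e-06. The difference in normalized counts between the genotypes within a sort is kept, but percent and log2 differences change with the level. Those given below are of deposited values unless stated otherwise. The spread between sorts is missing, and deposited values of the genotypes mirror each other, which gives both the same SD. Whole reads could be calculated back for 9625 genes, among them 6 of the 9 (not Notch2, Notch4 and Rbpj, which have values of 1000 or more). Depth over these genes was 1396191 to 2273402 reads in Ppef2+/+ and 1507988 to 4409173 in Ppef2-/- libraries, and the Ppef2-/- share of the reads of a sort went from 42.2 to 74.5%. Of the reads of Ppef2 itself, 816 came from Ppef2+/+ cells and 18 from Ppef2-/- cells. All 9 cDC1 markers examined were in the table, led by Wdfy4 with a mean of 28530 normalized counts, and 0 of 7 T cell markers were. The table also held all 7 cDC2 markers examined and 9 of 10 macrophage and monocyte markers, the highest of which was Lyz2 with a mean of 795.

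The stretch of 150 bases just before the start of transcription is shown for the receptors and for Dll4, since Notch2 and Notch4 were at high levels and Notch1 and Dll4 at low levels in these cells. They were taken from RefSeq (GRCm38.p6), where each of the 9 genes had an entry, and cover chr3:98013388-98013537 on the plus strand for Notch2, chr17:34564145-34564294 on the plus strand for Notch4, chr2:26503823-26503972 on the minus strand for Notch1 and chr2:119325634-119325783 on the plus strand for Dll4. Capitals mark the GC box GGGCGG or its reverse complement CCGCCC.
Notch2: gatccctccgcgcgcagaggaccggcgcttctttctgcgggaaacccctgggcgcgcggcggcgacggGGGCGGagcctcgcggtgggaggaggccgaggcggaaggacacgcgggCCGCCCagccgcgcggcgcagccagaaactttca
Notch4: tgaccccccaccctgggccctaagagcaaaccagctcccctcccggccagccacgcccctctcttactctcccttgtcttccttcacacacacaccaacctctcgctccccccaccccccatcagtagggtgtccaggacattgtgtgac
Notch1: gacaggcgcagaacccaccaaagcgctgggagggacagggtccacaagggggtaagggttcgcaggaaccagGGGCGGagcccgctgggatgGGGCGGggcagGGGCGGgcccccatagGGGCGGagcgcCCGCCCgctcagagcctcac
Dll4: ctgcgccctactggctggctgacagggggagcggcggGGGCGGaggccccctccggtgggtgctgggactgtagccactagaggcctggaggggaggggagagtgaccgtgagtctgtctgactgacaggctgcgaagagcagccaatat
Over the 250 bases before the start, Notch1 and Notch2 have 5 GC boxes each, Dll4 has 2 and Notch4 has 0, and 6 of the 9 genes have at least 1, against 32.7% of all 32851 RefSeq windows of that length. G and C make up 58.4 to 74% of the windows of the 9 genes, against a median of 52.4% over all windows. In the wider list of Notch pathway genes used below, 42 of 59 genes with a window have a GC box. Notch1, at a low level, thus has more GC boxes than Notch4, at a high level. The letters GTGGGAA or TTCCCAC, the core of the motif that RBPJ binds, are in 0 of the 10 windows of the 9 genes and in 5.42% of all windows.

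CD8+ cDC1 of both genotypes expressed Notch2 and Notch4 at high levels and Notch1 at a low level. To compare genes, normalized counts were divided by the kilobases of exon of each gene. On this scale the mean over the 10 libraries was highest for Rbpj, with 340 normalized counts per kilobase, followed by Notch2 with 244, Notch4 with 209, Adam17 with 190, Ncstn with 187, Adam10 with 108, Maml1 with 37.7, Notch1 with 11.4 and Dll4 with 1.86. The median of 10308 genes with a known length was 55.9, so that Rbpj lay above 90.9% of them, Notch2 above 86.6%, Notch4 above 83.9%, Notch1 above 13.6% and Dll4 above 0.504%. On deposited values, neighbours in this order did not overlap over the 10 libraries, with the exception of Adam17, whose range overlapped those of Notch4 and Ncstn. These ranges lack the spread between sorts, so that the libraries may have overlapped before the sort means were removed. If the exons of all annotated transcripts are counted, Rbpj comes below Notch2 and Notch4, and Adam17 below Ncstn.

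Among the receptors, Notch2 was 21.4 times and Notch4 18.3 times as high per length as Notch1. The fourth receptor gene, Notch3, was at 4.75 normalized counts per kilobase, below Notch1. All 4 receptor genes were therefore in the table, with 2 of them making up most of the receptor messenger RNA of these cells. The ligands were lower than these 2 receptors. Jag2 had 31.2 and Jag1 11.6 normalized counts per kilobase. Dll4 had 2.74 in Ppef2+/+ cells and 0.977 in Ppef2-/- cells. Dll1 and Dll3 were not analysed here.

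**Figure D1:**
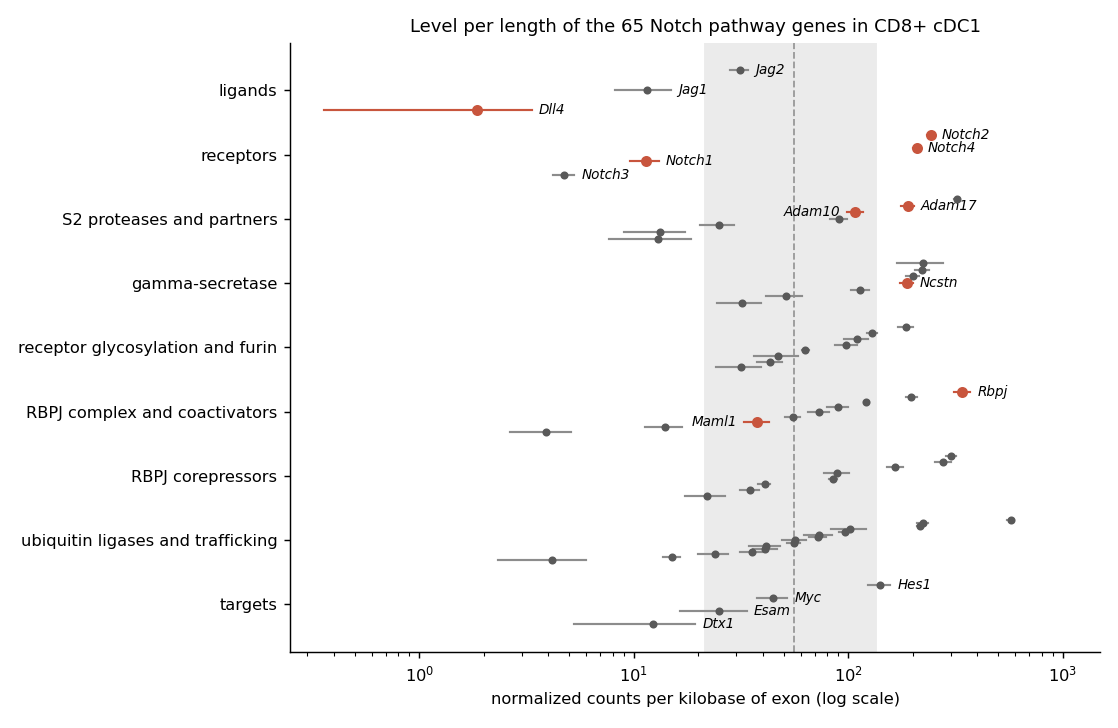
Mean level of the 65 Notch pathway genes in the table, in normalized counts per kilobase of exon on a log scale, grouped by role. Lines join the lowest and highest of the 10 libraries on deposited values, which lack the spread between sorts. The 9 genes described here are red, the grey band is the middle 50% and the dashed line the median of all 10308 genes with a length (55.9). Notch2 and Notch4 lie to the right of the band and Notch1, Notch3 and Dll4 to the left.

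Of the 9 genes, 8 had Ppef2-/- means between 94.0 and 105% of their Ppef2+/+ means, and Dll4 was lower in Ppef2-/- cells, at 35.7%. Tests were run with limma on log2(normalized count + 1) over all genes. Without a term for the sort, 2 of the 9 (Ncstn and Dll4) were lower in Ppef2-/- cells at an unadjusted p under 0.05 and 0 were higher, where 8.33% of all genes were lower and 9.2% higher by the same rule. Dll4 is in the table only through its Ppef2+/+ mean, which fixes its direction, so that these counts are no support for a lower Dll4. With the sort as a block, 1 of the 9 (Dll4) was lower and 0 were higher, against 1.99% and 2.3% of all genes. The median log2 difference of the 9 genes was -0.02 and that of all genes 0.0009. After Benjamini-Hochberg adjustment, Dll4 alone of the 9 had a limma adjusted p under 0.05, as 0.957% of all genes did, and with the sort as a block 0 of the 9 did, against 0.00929% (1 gene, Ppef2).

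**Figure D2:**
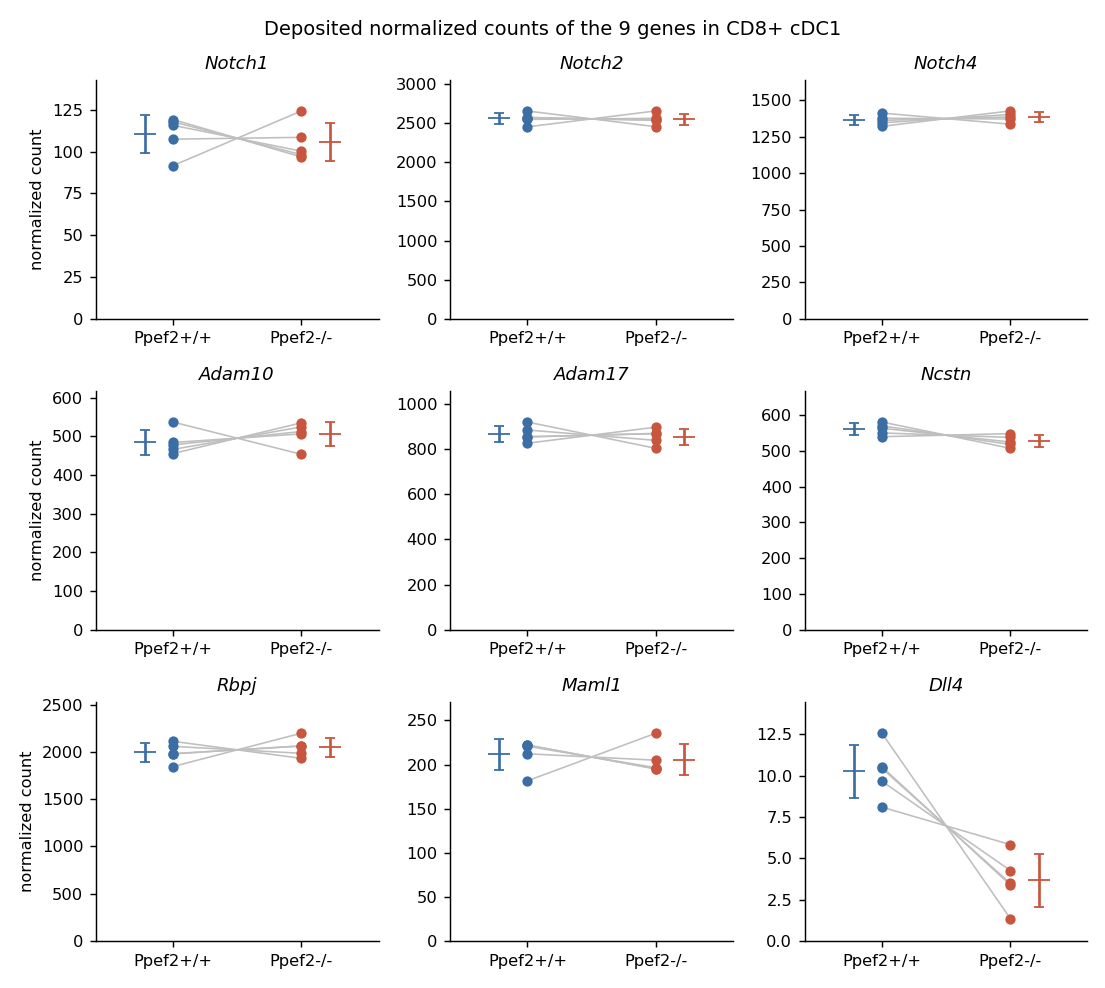
Deposited normalized counts (vertical axis, from 0) of the 9 genes in each library, with grey lines joining the libraries of a sort and bars for the mean ± SD of 5 libraries. The genotypes overlap in every panel but that of Dll4, and the lines cross because the sort means were removed before deposit. On these values the missing overlap only restates that Dll4 was lower in all 5 sorts, as 2.92% of all genes were.

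Notch2, the receptor with the highest level, was deposited at 2574, 2574, 2550, 2455 and 2657 normalized counts for Ppef2+/+ cells, listed here and below from sort 1 to sort 5. For Ppef2-/- cells the values were 2539, 2540, 2564, 2659 and 2457. The genotypes overlapped, and the Ppef2-/- library was lower in 3 sorts and higher in 2, by 7.55% at most downwards in sort 5 and 8.32% upwards in sort 4. The means were 2562 ± 72.4 and 2552 ± 72.4 (SD, n = 5), a log2 difference of -0.006 with a 95% interval of -0.108 to 0.096 in the blocked fit, so that a change of Notch2 beyond a ratio of 0.928 or 1.07 lay outside it. The limma adjusted p was 0.941 without and 0.999 with the block.

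Notch4, which is best known from endothelium, had 1363, 1346, 1322, 1378 and 1413 normalized counts in Ppef2+/+ cells. In Ppef2-/- cells it had 1387, 1404, 1428, 1373 and 1337. It was thus higher in Ppef2-/- cells in sorts 1 to 3 and lower in sorts 4 and 5, with overlap of the genotypes. The log2 difference was 0.02 (95% interval -0.085 to 0.130 with the block, limma adjusted p = 0.726 without and 0.997 with it). The difference between the genotypes varied less from sort to sort for Notch2 and Notch4 than for most genes of like level. The SD of the within-sort log2 difference was 0.082 for Notch2 and 0.072 for Notch4, and 27.2% and 14.6% of the genes within 1.5 times of their level had a smaller one.

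For Notch1, 88, 81, 53, 112 and 138 reads came from Ppef2+/+ cells and 226, 149, 120, 99 and 86 from Ppef2-/- cells, whose libraries differ in depth. As deposited normalized counts these were 116, 119, 91.6, 107 and 118 against 100, 96.7, 124, 108 and 98.1. Notch1 was lower in Ppef2-/- cells in sorts 1, 2 and 5, higher in sort 3 and within 1.11 normalized counts in sort 4. In 4 of 5 sorts the exact Clopper-Pearson interval (95%) of the Ppef2-/- share of Notch1 reads contained the share of all reads, and in sort 3 it did not (69.4%, 61.9 to 76.1%, against 61.5%). Such intervals cover counting error only. The log2 difference was -0.06 (95% interval -0.332 to 0.207 with the block), which leaves room for a larger change than for Notch2 or Notch4. The exact test over all 32 exchanges of genotype within sorts gave p = 0.625 for Notch1, 0.75 for Notch2 and 0.5625 for Notch4. Notch3 had a log2 difference of -0.07 (95% interval -0.465 to 0.335 with the block).

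Adam10 and Adam17, the proteases that cut the receptor outside the membrane, were at similar levels in both genotypes. Adam10 had 466, 456, 537, 478 and 484 normalized counts in Ppef2+/+ cells and 525, 535, 454, 513 and 507 in Ppef2-/- cells, so that it was higher without Ppef2 in 4 sorts and lower in sort 3. Its log2 difference was 0.06 (95% interval -0.086 to 0.215 with the block, limma adjusted p = 0.565 without it). Adam17 had means of 867 ± 35.6 and 854 ± 35.6 normalized counts (SD, n = 5) and a log2 difference of -0.02 (95% interval -0.144 to 0.102 with the block). It was lower in Ppef2-/- cells in 2 sorts and higher in 3.

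Ncstn had 563, 569, 580, 550 and 539 normalized counts in Ppef2+/+ cells and 524, 518, 507, 537 and 548 in Ppef2-/- cells. It was lower in Ppef2-/- cells in sorts 1 to 4, by 12.6% in sort 3 and 2.25% in sort 4, and higher by 1.6% in sort 5. Its log2 difference of -0.09 ± 0.033 (SE) had an unadjusted p of 0.0191 in limma without the sort (adjusted p = 0.19) and of 0.172 with the sort as a block, where the 95% interval went from -0.219 to 0.042. The exact test within sorts gave p = 0.125.

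Rbpj had 1982, 1979, 2112, 1845 and 2059 normalized counts in Ppef2+/+ cells and 2062, 2065, 1932, 2199 and 1985 in Ppef2-/- cells. The largest difference was in sort 4, where the Ppef2-/- library was 19.1% higher, and in sorts 3 and 5 it was lower. The log2 difference was 0.04 (95% interval -0.078 to 0.153 with the block). Maml1 had 127, 147, 175, 304 and 141 reads in Ppef2+/+ cells and 317, 298, 273, 240 and 142 in Ppef2-/- cells. In deposited normalized counts it was lower in sorts 1 to 4 of the Ppef2-/- cells and 29.8% higher in sort 5. With the sort means put back, Maml1 in sort 5 was at 194.5 in Ppef2-/- and 140.4 in Ppef2+/+ cells. Its log2 difference was -0.04 (95% interval -0.246 to 0.160 with the block). Taking the 8 genes other than Dll4 by sort, 5 were lower and 3 higher in Ppef2-/- cells in sort 1, 4 and 4 in sorts 2 and 3, 3 and 5 in sort 4, and 5 and 3 in sort 5, so that no sort moved all of them in 1 direction.

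**Figure D3:**
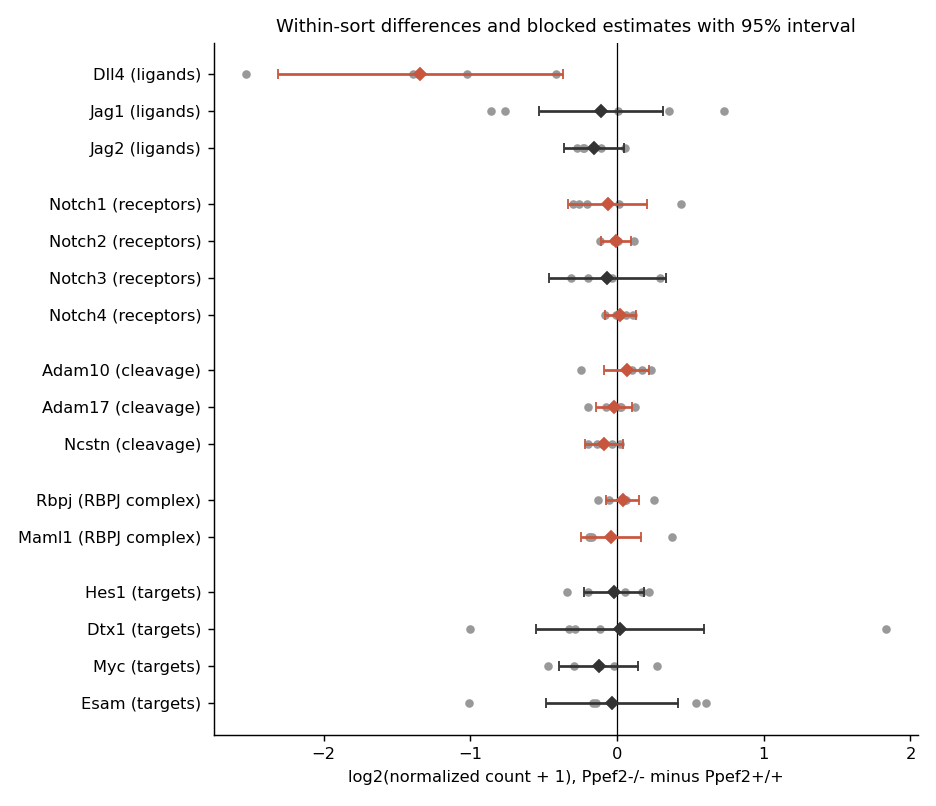
Differences between the genotypes on the log2(normalized count + 1) scale (horizontal axis, Ppef2-/- minus Ppef2+/+) in each of the 5 sorts (grey points) and the estimate of the blocked limma fit with its 95% interval (diamonds, red for the 9 genes). The interval contains 0 for each gene shown but Dll4, whose 5 sorts all lie below 0. Dll4 is in the table only through its Ppef2+/+ mean, which fixes the direction of its mean.

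Dll4, the Delta-like ligand of the set, was close to the detection limit and lower in Ppef2-/- cells. Ppef2+/+ cells of sorts 1 to 5 gave 7, 6, 6, 19 and 7 reads. Ppef2-/- cells gave 9, 10, 2, 6 and 0, from libraries that were deeper in sorts 1 to 3 and shallower in sorts 4 and 5. As deposited normalized counts these were 9.66, 8.10, 10.5, 12.6 and 10.4 against 4.26, 5.83, 3.39, 1.35 and 3.48, and with the sort means put back 9.58, 8.18, 9.02, 17.6 and 6.97 against 4.18, 5.91, 1.87, 6.34 and 0. The genotypes did not overlap on either scale. With the sort means put back, this held for 0.54% of all resolved genes and for 1.17% of those with a mean under 16. Deposited values of the genotypes mirror each other, so that there it only restates that Dll4 was lower in all 5 sorts. That direction in all 5 sorts was shared by 2.92% of all genes. Neurl3, Dtx3l and Fbxw7, for example, also had no overlap on deposited values, but overlapped with the sort means put back. The 0 reads of the Ppef2-/- library of sort 5 allow up to 3 reads, or 4.11 normalized counts.

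Over all libraries, 5.14 of every 1000000 reads of the 9625 resolved genes were Dll4 in Ppef2+/+ cells (45 reads, exact 95% interval 3.75 to 6.88) and 1.98 in Ppef2-/- cells (27 reads, 1.30 to 2.88). These intervals pool the libraries and cover counting error only, not the spread between libraries. Of the 45 reads, 19 came from the Ppef2+/+ library of sort 4. In sorts 4 and 5 the exact interval of the Ppef2-/- share of Dll4 reads lay below the share of all reads (9.36 to 45.1% against 47.0%, and 0 to 41.0% against 42.2%), and in sorts 1 to 3 it contained it. The deposited means were 10.3 ± 1.62 and 3.66 ± 1.62 normalized counts (SD, n = 5), a ratio of 2.80, and lower in 5 of 5 sorts, as in 2.92% of all genes. On deposited values the within-sort difference went from a fall of 28.1% in sort 2 to one of 89.2% in sort 4. These percentages depend on the removed sort mean. With it put back, Dll4 was at 17.6 against 6.34 in sort 4 and at 6.97 against 0 in sort 5, where the fall was largest. The log2 difference was -1.34 ± 0.285 (SE), with a limma adjusted p of 0.0478 without the sort. With the sort as a block the unadjusted p was 0.00926 (adjusted p = 0.995, 95% interval -2.31 to -0.371), and voom on the reads gave 0.00451 (adjusted p = 0.85), a rule under which 2.42% of the genes were lower at an unadjusted p under 0.05. The exact test within sorts gave p = 0.0625, the smallest that 5 sorts allow. Dll4 is in the table only through its Ppef2+/+ mean, which fixes its direction. None of these p-values and shares of all genes, those of the overlap above included, is therefore support for a lower Dll4. Without any of the 10 libraries in turn, the log2 difference was between -1.50 and -1.12 and the adjusted p between 0.077 and 0.114. The library left out still acted on the deposited value of the other library of its sort, through the removed sort mean.

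The authors kept genes with a mean of at least 10 in 1 genotype or more, and Dll4 passed through its Ppef2+/+ mean. It is 1 of 127 genes kept through that mean alone, which had to be lower in Ppef2-/- cells, and 18 of these were lower in all 5 sorts. Among the 127, 3 had a Ppef2-/- to Ppef2+/+ ratio as low as that of Dll4 or lower, Dll4 included, and the median was 68.9%. Earlier results of these data had already shown Dll4 to be lower, so that its difference is no independent evidence. In addition, 214 bases of its exons overlap the antisense transcript Gm14207, and the library kit does not mark the strand. Exons of Notch1, Adam17, Ncstn and Maml1 also overlap transcripts of the other strand, by 135 to 1068 bases per pair, and those of Notch2 overlap Gm42820 on the same strand by 541 bases.

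Some markers of other cell types were lower in Ppef2-/- cells too. The sort had taken CD11c+MHCII+CD8+CD11b- cells. Of 18 endothelial markers 8 were in the table, and their summed level with sort means put back was 1056 to 1176 normalized counts in Ppef2+/+ libraries and 924 to 1045 in Ppef2-/- libraries, lower in 5 of 5 sorts. Of the 8, Eng, Flt1 and Pecam1 were lower at an unadjusted p under 0.05 with the block and 0 were higher, where 1.99% of all genes were lower. Cdh5, the endothelial cadherin, was at 12.9 ± 1.83 and 12.7 ± 1.83 normalized counts (SD, n = 5) and differed by 0.02 on the log2 scale. Stab2 had a log2 difference of -0.005, Kdr of -0.11, Vwf of -0.23 and Plvap of -0.36. Pecam1, Flt1 and Vwf had the highest counts of the 8 and weigh most in the sum, with Ppef2+/+ means of 406, 304 and 209. In sort 5 the sums were 1056 and 1045. None of the 8 was at or near 0 in a library. Of 8 pDC markers 7 were in the table, with sums of 1177 to 1557 and 1060 to 1311, lower in 5 of 5 sorts, and Siglech and Tcf4 were lower by the same rule. Ccr9, Spib and Bst2 of the pDC list differed little, with log2 differences of 0.03, 0.04 and -0.05. Ly6d and Klk1 had log2 differences of -0.82 and -0.81, with unadjusted limma p-values of 0.0791 and 0.12 with the block. Klk1 of this list was at or near 0 in at least 1 library. The sums of the cDC2 and of the macrophage and monocyte markers were lower in 3 of 5 sorts, and those of the B cell and of the erythroid and platelet markers in 1 of 5. Among these lists, Ly6c2 of the macrophage and monocyte markers was lower by the same rule, with a log2 difference of -0.45. The part of these cells in the difference of Dll4 was not tested, and fewer cells of a type cannot be told apart from less RNA per cell in bulk samples.

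**Figure D4:**
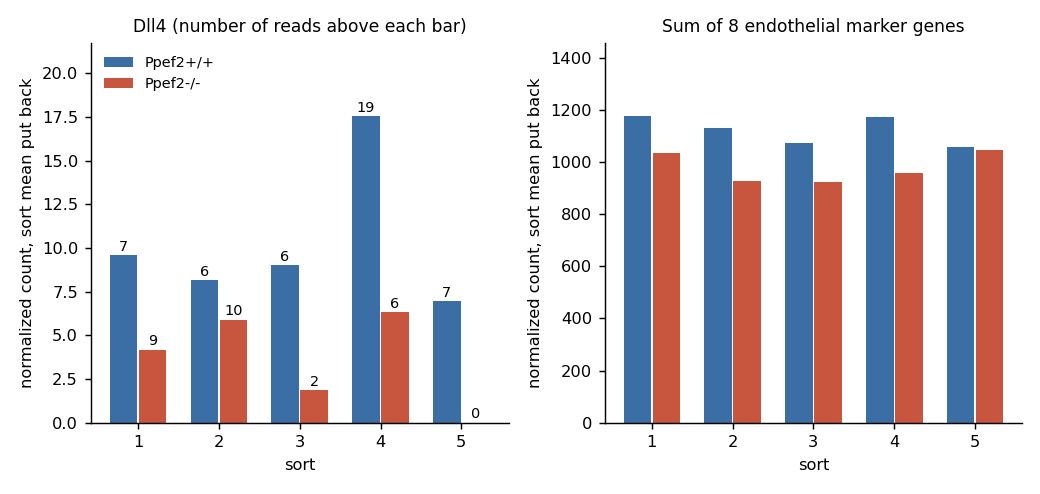
Dll4 (left) and the sum of the 8 endothelial markers in the table (right) in each sort, as normalized counts with the sort mean put back, for Ppef2+/+ (blue) and Ppef2-/- (red) libraries, with the number of Dll4 reads above each bar. Both were lower in the Ppef2-/- library of every sort. Pecam1, Flt1 and Vwf weigh most in the endothelial sum. In sort 5, Dll4 had 7 and 0 reads, while the endothelial sums were close, at 1056 and 1045.

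The other ligands differed less. Jag1 had 84.0, 64.9, 56.9, 82.1 and 48.7 normalized counts in Ppef2+/+ cells and 45.9, 65.0, 73.0, 47.9 and 81.3 in Ppef2-/- cells, with overlap and a log2 difference of -0.11 (95% interval -0.530 to 0.316 with the block). Jag2 had means of 168 ± 7.33 and 150 ± 7.33 (SD, n = 5) and was lower in Ppef2-/- cells in 4 of 5 sorts, with a log2 difference of -0.16 and an unadjusted limma p of 0.00907 without the sort (adjusted p = 0.141) and 0.122 with it.

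Around the 9 genes, 65 of 76 genes of a Notch pathway list were in the table, the 9 included. Without the sort, 9 were lower and 5 higher in Ppef2-/- cells at an unadjusted p under 0.05, against 8.33% and 9.2% of all genes, with 1 (Dll4) at an adjusted p under 0.05 in limma. With the block 1 (Dll4) was lower and 0 were higher, against 1.99% and 2.3% of all genes. Dll4 counts in both fits, although its place in the table had fixed its direction. The median log2 difference of the list was -0.02.

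Of the 7 genes of gamma-secretase, the protease that cuts the receptor within the membrane, 3 were lower without the sort (Aph1a, Ncstn and Psen2), against 8.33% of all genes, and 0 with it. Aph1a, the subunit that helps to assemble the complex, had a log2 difference of -0.13 and an unadjusted limma p of 0.00713, which was 0.0579 with the block. Psen2, a catalytic presenilin, had -0.20, with an unadjusted limma p of 0.0475, which was 0.142 with the block. Psenen, at 223 normalized counts per kilobase the highest of this group, had a log2 difference of 0.08. Of the 7 Adam proteases and partners, Rhbdf1, an inactive rhomboid protein that carries Adam17 to the surface, had a log2 difference of 0.42 and an unadjusted limma p of 0.0158, which was 0.0635 with the block. Tspan33, a tetraspanin partner of Adam10 and the highest per length, had 0.02.

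Of the genes that act with Rbpj in the nucleus, Snw1 had a log2 difference of -0.09 and an unadjusted limma p of 0.0146, which was 0.174 with the block. Among 8 corepressor genes, Cir1 had -0.16 and L3mbtl3 0.21, with unadjusted limma p-values of 0.0315 and 0.0434, which were 0.209 and 0.128 with the block. Hdac1, the highest of them per length, had -0.007. Of 15 ubiquitin ligases and trafficking genes, 2 were lower and 3 higher without the sort, against 8.33% and 9.2% of all genes, and 0 passed with it. Among them, Fbxw7, which marks the active receptor for degradation, had a log2 difference of 0.19 and an unadjusted limma p of 0.00437, which was 0.0577 with the block. Dtx3l and Neurl3 both had -0.10, and Nedd4, with 574 normalized counts per kilobase the highest of the list, had 0.05. Of the 8 glycosylation genes, 0 passed in either fit, and Poglut1, which adds glucose to the receptor, had the highest level and a log2 difference of 0.09.

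Target genes of Notch signalling did not pass the test. Hes1, the transcriptional repressor that is the most widely used readout, was at 140 normalized counts per kilobase, above 75.9% of genes. It had means of 207 ± 17.2 and 205 ± 17.2 normalized counts (SD, n = 5), with a log2 difference of -0.02 (95% interval -0.224 to 0.185 with the block). It was lower in Ppef2-/- cells in 2 sorts and higher in 3. Myc had a log2 difference of -0.12 (95% interval -0.393 to 0.144), Esam -0.03 (-0.486 to 0.417) and Dtx1 0.02 (-0.553 to 0.595), all with the block. The intervals of Esam and Dtx1, at 46.7 and 49.7 normalized counts, do not exclude changes larger than those of any receptor. The other 5 targets of the list were not analysed here.

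As a description, the genes whose deposited profile over the 10 libraries was nearest to that of Notch2 (Euclidean distance of log2(normalized count + 1) centred on the mean of each gene) were Inpp5d, Snapc4 and Glud1, at distances of 0.033 to 0.039. Those of Notch4 were Ddost, Rps9 and Nr3c1 (0.033 to 0.046), and those of Notch1 were Ikzf5, Bco2 and Gipc1 (0.098 to 0.135). For Dll4 they were Xntrpc, 1810014B01Rik and 2810029C07Rik, at the much larger distances of 1.03 to 1.13.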

How the data were processed

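CD8+ cDC1 RNA of 5 sorts per genotype was sequenced as poly-A libraries. Per the methods, the authors aligned single-end reads to mm10 with HISAT, while the submitters' processing notes name TopHat2 2.0.3, Partek 6.6 and R 3.0.2. The authors counted reads per RefSeq gene, normalized with DESeq2, raised values below 1 to 1 and kept genes with a mean of at least 10 in 1 genotype or more. The deposited values are thus a normalized count signal, and their sort means had been removed, a step not given in the sources used here. All 10 columns were used (0 left out).

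The 9 genes and all lists were chosen with earlier results of these data known. Differences were tested with limma 3.58.1 in R 4.3.3 (eBayes with a trend, two-sided) on log2(value + 1) and adjusted by Benjamini-Hochberg over 10767 genes, with all 10 libraries. The sort numbers of the labels pair the libraries: deviations within each of the 5 sorts correlated with r = -1.00, so limma without the sort counts mirrored values as independent, and the blocked value stands beside each call it changes. Whole reads were solved from the values and the value of 1 read in each library (0.464 to 1.50 normalized counts), tested with voom and the sort as a block. The limma fits and the read solution were tested on simulated data, where limma without the sort called unchanged genes more often than its p-value allows. Lengths are exons of RefSeq-linked transcripts in GENCODE M21 (GRCm38), known for 95.7% of genes. Named genes are the 9, Ppef2, every ligand, receptor and target, and from each other role at most 3 genes with an unadjusted p under 0.05 and the gene with the highest level per length. Genes of the marker lists were named after their values were seen. Alternatives were other pseudocounts (0.1 and 10), a mean of at least 20, the block, 2 scalings, no trend, a linear model without moderation, reads, and each library left out.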

Additional observations from a re-analysis of the deposited data

Results flagged for a closer look

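With the sort means put back, Dll4 in the Ppef2+/+ library of sort 4 was at 17.6 normalized counts (19 reads), far above the other Ppef2+/+ libraries, of which the next was at 9.58, so that the gap was 0.753 of the range of the 5 libraries. It was 1 of 34 groups of 5 libraries examined this way, over 17 genes, and chance marks about 1 in 20 such groups. Without this library the log2 difference of Dll4 was -1.27 (limma adjusted p = 0.109). The Ppef2-/- library of sort 4 kept its deposited value of 1.35, against 6.34 with the sort mean put back. This fit therefore does not remove the influence of the flagged library.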

How the results depend on the processing

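The count of genes past an adjusted p of 0.05 in limma, 103 without the sort, was 1 with the replicate block, 1 with the sort means put back, 3 with voom on reads and the block, 193 without a trend, 280 on a linear scale without moderation, and 1 to 23 when each library was left out. Of the 9 genes, the 2 past an unadjusted p of 0.05 became 1 with the replicate block, with the sort means put back, with voom and with a mean of at least 20 (which removes Dll4), and 1 to 2 when each library was left out (1 without Ppef2+/+ library 3). Without Ppef2-/- library 3 the 2 were Dll4 and Adam10, which was higher with an unadjusted limma p of 0.0486, whereas Ncstn had an unadjusted limma p of 0.0522. The 14 pathway genes became 1 with the replicate block, 1 with the sort means put back and 2 with voom. An alternative chosen after seeing the data, the replicate block with the sort means put back, gave 2 genes past an adjusted p of 0.05, 1 of the 9 and 1 pathway gene.

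The log2 difference of Dll4 kept its direction in every fit that gave a value and was -0.57 with a pseudocount of 10, and its limma adjusted p was 0.0588 with a pseudocount of 0.1, 0.051 with each library divided by its total and 0.995 with the replicate block. With each library left out, Notch2 went from -0.0212 to 0.00768 and Adam17 from -0.0385 to 0.00144, with the sign turned when either library of sort 5 was left out. In all such fits the library left out still acts on the other library of its sort, through the removed sort mean. Notch2, Notch4 and Rbpj have no value on reads. The block changed no call of the 9 genes other than those of Ncstn and Dll4. Depth limits Dll4 most, at 0 to 19 reads per library.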
